A study of Mus musculus with 12 samples.

Results

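CA3 pyramidal cell regions were compared with the dentate gyrus (DG) in formalin-fixed paraffin sections of the mouse hippocampus. The replicates were taken by their column labels, as 4 CA3 and 4 DG replicates, which are 8 of the 48 replicate columns of the series and 2 of its 12 libraries. Photo-isolation chemistry (PIC) reverse-transcribes RNA inside the tissue section with light-caged primers, and light on a chosen area then uncages the primers there. The whole section is lysed, and the uncaged cDNA is selectively amplified for sequencing. Both groups came from male ICR mice (Slc:ICR in the paper) aged 8 weeks. The brain was fixed with 4% PFA, embedded in paraffin and permeabilized with TE at 70 °C for 1 h. The irradiated region is thus the labelled difference between the groups. The 4 replicates of a region carried different barcodes and were pooled in 1 library, so library and region cannot be told apart. The paper describes the replicates as biological but names no mice, and p-values may be too small if replicates share an animal. The design text of the series names CA2 where the column labels and the paper name CA3.

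CA3 pyramidal cells and DG granule cells are both glutamatergic neurons and form neighbouring steps of the hippocampal circuit. Granule cells send their axons, the mossy fibres, onto the proximal dendrites of CA3 pyramidal cells, and CA3 cells in turn project to CA1 and to each other. Granule cell identity depends on the homeobox factor Prox1, and the DG keeps producing neurons in adult life. Irradiated tissue also holds interneurons, glia, vessels, axons that pass through it and the synapses that end there, and a bulk profile sums all of them. A lower level can therefore come from fewer cells of a type or from less RNA per cell, which cannot be told apart here.

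Each value is a count of UMIs (unique molecular identifiers, one per captured transcript), or that count scaled to the replicate's total (CPM). The CA3 replicates 1 to 4 held 120872, 99262, 47811 and 39902 UMIs and the DG replicates 147509, 112473, 223055 and 64265. These totals overlap, with a CA3 to DG ratio of means of 0.56 (two-sided exact permutation test, p = 0.171). At least 1 UMI was seen for 13130, 10911, 8464 and 7777 genes in CA3 and for 13741, 11694, 13566 and 9589 genes in DG, a ratio of 0.83 (exact permutation p = 0.229). Values of 4 replicates are given below in the order 1 to 4, CA3 first, and log2 fold changes are of CA3 over DG, so that positive values are higher in CA3. Positions of genes are on GRCm38. A gene was called when its adjusted p in the edgeR fit across all genes tested was under 0.05. Gene lists and their members were chosen with earlier results of these data known. Counts of calls in a list are thus descriptions and not independent support.

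CA3 held higher levels of pyramidal cell genes such as Dkk3 and Neurod6 (log2 fold changes 1.49 and 1.49), n = 4 in each region. Of 15 synaptic vesicle genes, 8 were called higher in CA3, such as Sv2b and Syn2 (2.06 and 1.46), and 1, Slc17a6, higher in DG. DG held higher levels of granule cell genes such as Prox1, Calb1 and Rfx3 (-2.16, -3.23 and -2.34), and of Zic1 and Tcf7l2 (-2.06 and -1.58). A set of pseudogenes with near-identical copies elsewhere in the genome, such as Gm14336 and Gm28437 (7.23 and 3.07), was higher in CA3 as well. Values, errors and tests of each follow.

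The labels were checked first with Dkk3, a secreted glycoprotein found in pyramidal cells, and with Prox1. Dkk3 (ENSMUSG00000030772, chromosome 7, 112116017 to 112159057) was at 479.8, 342, 628 and 476 CPM in CA3 and at 142, 178, 184 and 187 CPM in DG. All CA3 replicates were above all DG replicates, with means of 482 ± 116 and 173 ± 20.6 CPM (mean ± SD, n = 4 each) and a log2 fold change of 1.49 (adjusted p = 1.12e-04, SE 0.28). Prox1 (ENSMUSG00000010175, chromosome 1, 190118035 to 190170714) was at 141, 111, 62.8 and 50.1 CPM in CA3 and at 400.0, 347, 587 and 654 CPM in DG. Here every DG replicate was above every CA3 replicate, with means of 91.1 ± 42.1 and 497 ± 147 CPM (mean ± SD, n = 4 each) and a log2 fold change of -2.16 (adjusted p = 9.74e-07, SE 0.32). An antisense transcript, Prox1os, overlaps Prox1, and the counts do not separate the strands. Prox1 was not absent from CA3, where its 4 replicates held 17, 11, 3 and 2 UMIs. Both genes were called in each of the 8 fits that left out 1 replicate. Dkk3 is not a marker of CA3 alone, since CA1 of the same section type had 434 ± 247 CPM (mean ± SD, n = 4).

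Of the 9380 genes whose 8 replicates together held 10 or more UMIs, 301 were called (3.21%), 181 higher in CA3 (1.93%) and 120 higher in DG (1.28%). The counts depend on single replicates. Without CA3 replicate 1, 429 genes were called (238 and 191). The count was 172 without CA3 replicate 2 (104 and 68) and 174 without DG replicate 2 (99 and 75), and 118 genes were higher in CA3 without DG replicate 3. In all 8 such fits 104 genes were called, 64 higher in CA3 and 40 higher in DG, and 128 genes were called in the 4 fits that each left out a CA3 replicate. DESeq2 called 149 genes on the same replicates, 99 and 50. With all replicates thinned at random to 39902 UMIs, 128 genes were called, 86 and 42. CPM of the 4 CA3 and the 4 DG replicates did not overlap for 852 genes (9.08%), with CA3 above in 302 (3.22%) and DG above in 550 (5.86%). The median log2 fold change over all genes tested was -0.06. At an unadjusted p under 0.05 in the edgeR fit, 630 of the 8718 protein-coding genes tested were higher in CA3 and 586 higher in DG. Among genes called were 143 protein-coding genes and 34 pseudogenes higher in CA3, and 107 protein-coding genes and 1 pseudogene higher in DG.

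**Figure D1:**
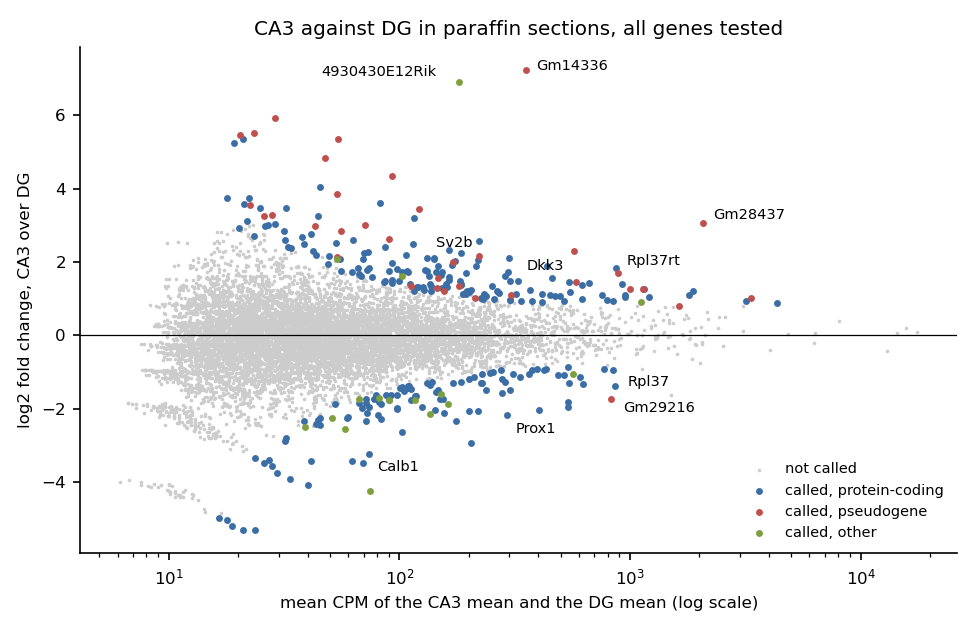
Log2 fold change of CA3 over DG against the mean CPM of both groups (log scale) for the 9380 genes tested, with grey points not called and coloured points called, by gene type. Called pseudogenes lie mostly above 0, where 34 of the 35 called were found.

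Of 12 genes chosen as CA3 markers, 10 were tested and 4 were called, all higher in CA3 (beside 1.93% of all genes tested), with a median log2 fold change of 1.21 beside -0.06 over all genes tested. The summed level of the list was 1696, 1299.6, 1548 and 1754 CPM in CA3 and 759, 738, 695 and 622 CPM in DG. These sums do not overlap, and Dkk3 was the most abundant member. Dkk3 was the member called in every fit without 1 replicate, and the count of called members fell from 4 to 1 without CA3 replicate 1 or without DG replicate 3, and to 1 with DESeq2. Cpne4, a calcium-dependent membrane-binding copine, had a log2 fold change of 1.17 (adjusted p = 0.022, SE 0.32), and an adjusted p of 0.0575 to 0.161 without CA3 replicate 1, 2 or 4 or DG replicate 2, 3 or 4. Spock1, a secreted proteoglycan, stood at 0.97 (adjusted p = 0.0316, SE 0.28), with an adjusted p of 0.052 to 0.207 without CA3 replicate 1 or 4 or DG replicate 1, 2, 3 or 4. Cdh24, a cadherin, rests on few counts, 5, 5, 2 and 0 UMIs in CA3 and 0, 1, 0 and 0 in DG, with adjusted p = 0.0234, 0.0831 to 0.135 without DG replicate 1 or 3, and too few counts to be tested without CA3 replicate 1 or 2. Grik4, the kainate receptor subunit of mossy fibre synapses, was at 49.6, 60.5, 20.9 and 25.1 CPM in CA3 and 13.6, 17.8, 17.9 and 0 CPM in DG, and it did not pass the test (log2 fold change 1.61, adjusted p = 0.24) although its groups did not overlap. Socs2, another member (log2 fold change 1.24, adjusted p = 0.0519), was called without CA3 replicate 2 (adjusted p = 0.0376) or DG replicate 2 (0.0364). Iyd and Coch, also of this list, held 2 UMIs each over the 8 replicates.

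Of 3 genes listed as markers of both CA1 and CA3, Dkk3 and Neurod6 were called higher in CA3 (1.93% over all genes tested) and Ociad2 was not (log2 fold change 0.50, adjusted p = 0.503), with a list median of 1.49. Neurod6, a basic helix-loop-helix factor of pyramidal neurons (ENSMUSG00000037984, chromosome 6, 55677822 to 55681263), was at 323, 433, 335 and 702 CPM in CA3 and at 129, 160.0, 166 and 171 CPM in DG. The groups did not overlap, CA3 replicate 4 was the highest, and the log2 fold change was 1.49 (adjusted p = 2.00e-04, SE 0.29). Summed over the 3 genes, the levels were 1009, 1018, 1088 and 1428 CPM in CA3 and 407, 471, 556 and 467 CPM in DG. Both calls were made in all 8 fits without 1 replicate and with DESeq2.

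Genes of the synaptic vesicle and its fusion machinery formed the list of neuronal genes with the most calls. Like the other lists, it was chosen with earlier results of these data known. All 15 members were tested, 8 were called higher in CA3 and 1 higher in DG (beside 1.93% and 1.28% of all genes tested), and the median log2 fold change was 0.89. Summed levels were 11806, 15172, 16984 and 15914 CPM in CA3 and 7999.5, 8606, 9401 and 10099 CPM in DG. Each CA3 sum was above each DG sum, and the most abundant member was Snap25. The number called higher in CA3 was 5 without DG replicate 1, 2 or 3, and 5 with DESeq2. Sv2b, a vesicle glycoprotein (ENSMUSG00000053025, chromosome 7, 75114894 to 75309262), was at 356, 272, 356 and 451 CPM in CA3 and 88.1, 133, 80.7 and 15.6 CPM in DG. The lowest CA3 replicate was above the highest DG replicate, and the log2 fold change was 2.06 (adjusted p = 5.80e-06, SE 0.33). A noncoding gene, 1500012K07Rik, overlaps Sv2b on the opposite strand. Syn2, a synapsin that tethers vesicles (ENSMUSG00000009394, chromosome 6, 115134902 to 115282006), was at 529.5, 756, 1129 and 802 CPM in CA3 and 189.8, 311, 399 and 233 CPM in DG. Its groups did not overlap either, with a log2 fold change of 1.46 (adjusted p = 7.68e-05, SE 0.27). Timp4 lies within Syn2 on the opposite strand, and the counts do not tell the strands apart.

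The other vesicle genes called higher in CA3 were Syp, Slc17a7, Snap25, Vamp2, Stx1a and Syn1. Syp, the vesicle membrane protein synaptophysin, was at 405, 1148, 1339 and 652 CPM in CA3 and 237, 311, 386 and 467 CPM in DG. CA3 replicate 1 lay among the DG replicates, and the log2 fold change was 1.38 (adjusted p = 3.98e-04, SE 0.27). Slc17a7, the vesicular glutamate transporter VGLUT1, had 3, 38, 20 and 0 UMIs in CA3 and 1, 3, 5 and 3 in DG. Its call (adjusted p = 1.83e-05) came mostly from CA3 replicates 2 and 3, the groups overlap, and DESeq2 did not call it (adjusted p = 0.19). The SNARE genes Snap25, Vamp2 and Stx1a and the synapsin gene Syn1 each lost their call in 1 or more fits that left out a replicate. Snap25 had a log2 fold change of 0.89 (adjusted p = 0.0197, SE 0.24), with an adjusted p of 0.0577 to 0.152 without DG replicate 1, 2 or 3. Vamp2 had one of 1.05 (adjusted p = 0.00431, SE 0.25), with an adjusted p of 0.0841 without DG replicate 2. Stx1a stood at 1.84 (adjusted p = 0.0232, SE 0.51), with an adjusted p of 0.0666 to 0.204 without CA3 replicate 2 or 3 or DG replicate 1 or 3. Syn1 stood at 1.08 (adjusted p = 0.0331, SE 0.31), with an adjusted p of 0.0504 to 0.345 without CA3 replicate 2 or 3 or DG replicate 1, 2, 3 or 4. Syt1, Cplx1, Cplx2, Rab3a and Sv2a were not called, and Cplx1 was called without CA3 replicate 1 (log2 fold change 0.98, adjusted p = 0.0163). Slc17a6, the transporter VGLUT2, went the other way and is given with the DG genes.

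Chgb, the dense-core vesicle protein chromogranin B (ENSMUSG00000027350, chromosome 2, 132781278 to 132795079), was at 1042, 1239, 1569 and 1529 CPM in CA3 and 142, 391, 421 and 591 CPM in DG. CA3 lay above DG in every replicate, with means of 1345 ± 249 and 387 ± 185 CPM (mean ± SD, n = 4 each) and a log2 fold change of 1.85 (adjusted p = 6.22e-07, SE 0.27). Chgb was named after its values were seen and belongs to none of the lists. Of 19 microtubule and axon genes, 18 were tested and 3 were called, all higher in CA3 (beside the 1.93%), with a median of 0.12. Their summed levels overlapped, at 10143, 10316, 9684 and 12280.1 CPM in CA3 and 9084, 10936, 9975 and 9912 CPM in DG, and Map1b was the most abundant. Stmn2, a tubulin-binding stathmin of growing axons, was at 637, 766, 690.2 and 927 CPM in CA3 and 305, 364, 251 and 451 CPM in DG. Those values did not overlap, and the log2 fold change was 1.19 (adjusted p = 0.00154, SE 0.26). Stmn3, a related stathmin, had 132, 191, 418 and 175 CPM in CA3 and 47.5, 44.5, 44.8 and 77.8 CPM in DG, again without overlap, and 2.11 (adjusted p = 1.12e-04, SE 0.39). Tubb3, the neuronal beta-tubulin, had a log2 fold change of 1.22 (adjusted p = 0.0422, SE 0.37) and an adjusted p of 0.0514 to 0.196 without CA3 replicate 1, 2 or 3 or DG replicate 1, 2, 3 or 4. Without CA3 replicate 1, Map1b was called higher in DG (-1.15, adjusted p = 0.00341), and Tuba1a (1.31) and Stmn4 (1.43) were called higher in CA3.

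Genes of calcium, Ras and diacylglycerol signalling in this paragraph were chosen after their values were seen and form no list. Rasgrp1, a Ras activator that responds to calcium and diacylglycerol, was at 1100.3, 937, 1401 and 1929.7 CPM in CA3 and 346, 480.1, 628 and 560.2 CPM in DG. CA3 was above DG in all replicates, with a log2 fold change of 1.40 (adjusted p = 6.71e-05, SE 0.25). Rasgrf1, a Ras activator that binds calmodulin, was instead at 256, 272, 376 and 351 CPM in CA3 and 536, 516, 794 and 809 CPM in DG, without overlap, with -1.07 (adjusted p = 0.00837, SE 0.27). Its paralogue Rasgrf2 had the same direction, with -1.76 (adjusted p = 0.0107, SE 0.45), and an adjusted p of 0.06 without CA3 replicate 2 and 0.062 without DG replicate 2. Prkca, a protein kinase C that calcium and diacylglycerol activate, had 1.09 (adjusted p = 0.00683, SE 0.27), with an adjusted p of 0.0565 without DG replicate 3. Adcy1, an adenylyl cyclase stimulated by calcium and calmodulin, was higher in DG, at 223, 141, 230.1 and 376 CPM in CA3 and 556, 898, 964 and 902 CPM in DG. Again the groups were apart, with -1.82 (adjusted p = 2.66e-06, SE 0.28). Dgkh, a kinase that removes diacylglycerol, was at 190.3, 80.6, 41.8 and 326 CPM in CA3 and 529, 569, 686 and 809 CPM in DG, with -2.02 (adjusted p = 2.13e-06, SE 0.31). CA3 replicate 4 was its highest CA3 value and still below all 4 DG replicates.

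Among proteins that act outside the cell, Nptxr, the neuronal pentraxin receptor, was at 1216, 1652, 1882 and 1704 CPM in CA3 and 542, 889, 767 and 980.3 CPM in DG. The regions did not overlap, with 1.05 (adjusted p = 0.00408, SE 0.25), and Npcd shares its locus on the same strand. Nptx1, a secreted neuronal pentraxin, had 1.11 (adjusted p = 0.00254, SE 0.25), with an adjusted p of 0.0514 without DG replicate 2. Cx3cl1, the neuronal chemokine fractalkine, was at 447, 665, 795 and 852 CPM in CA3 and 156, 240.1, 278 and 249 CPM in DG, without overlap and with 1.56 (adjusted p = 2.74e-05, SE 0.27). Igfbp5, which binds insulin-like growth factors, was higher in DG, at 157, 101, 83.7 and 125 CPM in CA3 and 339, 516, 274 and 311 CPM in DG. Its groups were also apart, with -1.49 (adjusted p = 0.00129, SE 0.32). The nuclear receptors Nr4a2 and Nr4a3 moved in opposite directions, Nr4a2 with -2.0 (adjusted p = 0.00282, SE 0.46) and Nr4a3 with 1.49 (adjusted p = 0.0342, SE 0.43). Nr4a2 was called in all 8 fits without 1 replicate, whereas Nr4a3 had an adjusted p of 0.0583 to 0.121 without CA3 replicate 2, 3 or 4 or DG replicate 1, 2, 3 or 4. These genes, too, were singled out after their values were seen.

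Under the rule for the largest changes, 10 genes in each direction were taken from those called that averaged 3 UMIs or more per replicate and did not overlap in CPM, which 101 genes met on the CA3 side and 104 on the DG side. On the CA3 side 8 of the 10 were pseudogenes, 1 was the noncoding gene 4930430E12Rik and 1 was protein-coding. The protein-coding gene was Fxyd7, a brain regulator of the sodium pump (ENSMUSG00000036578, chromosome 7, 31042513 to 31051467), at 57.9, 161, 272 and 125 CPM in CA3 and 0, 26.7, 13.4 and 0 CPM in DG. Its lowest CA3 replicate was above its highest DG replicate, with 3.60 (adjusted p = 7.67e-06, SE 0.58). Because pseudogenes filled the list, the next protein-coding genes with the largest changes were read after the fact. Kcnq5, a subunit of the M-type potassium channel, was at 116, 121, 62.8 and 200.5 CPM in CA3 and 33.9, 17.8, 31.4 and 0 CPM in DG, with 2.28 (adjusted p = 0.00164, SE 0.50). Hapln4, a link protein of the perineuronal matrix, was at 141, 322, 230.1 and 100.2 CPM in CA3 and 33.9, 35.6, 53.8 and 0 CPM in DG, with 2.49 (adjusted p = 1.79e-05, SE 0.42). CPM of both genes were apart between CA3 and DG, and both were called in all 8 fits without 1 replicate. The others were Chrnb2, Hnrnph1, Agap2, Rpl18, Osbp2, Cabp1 and Atp5d, with log2 fold changes between 2.24 and 2.68. Of these Chrnb2, a nicotinic receptor subunit with few counts (6, 7, 2 and 4 UMIs in CA3 and 1, 1, 2 and 1 in DG), was lost in 4 of the 8 fits, with an adjusted p of 0.0514 to 0.0833 without CA3 replicate 2 or DG replicate 1, 2 or 3.

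**Figure D2:**
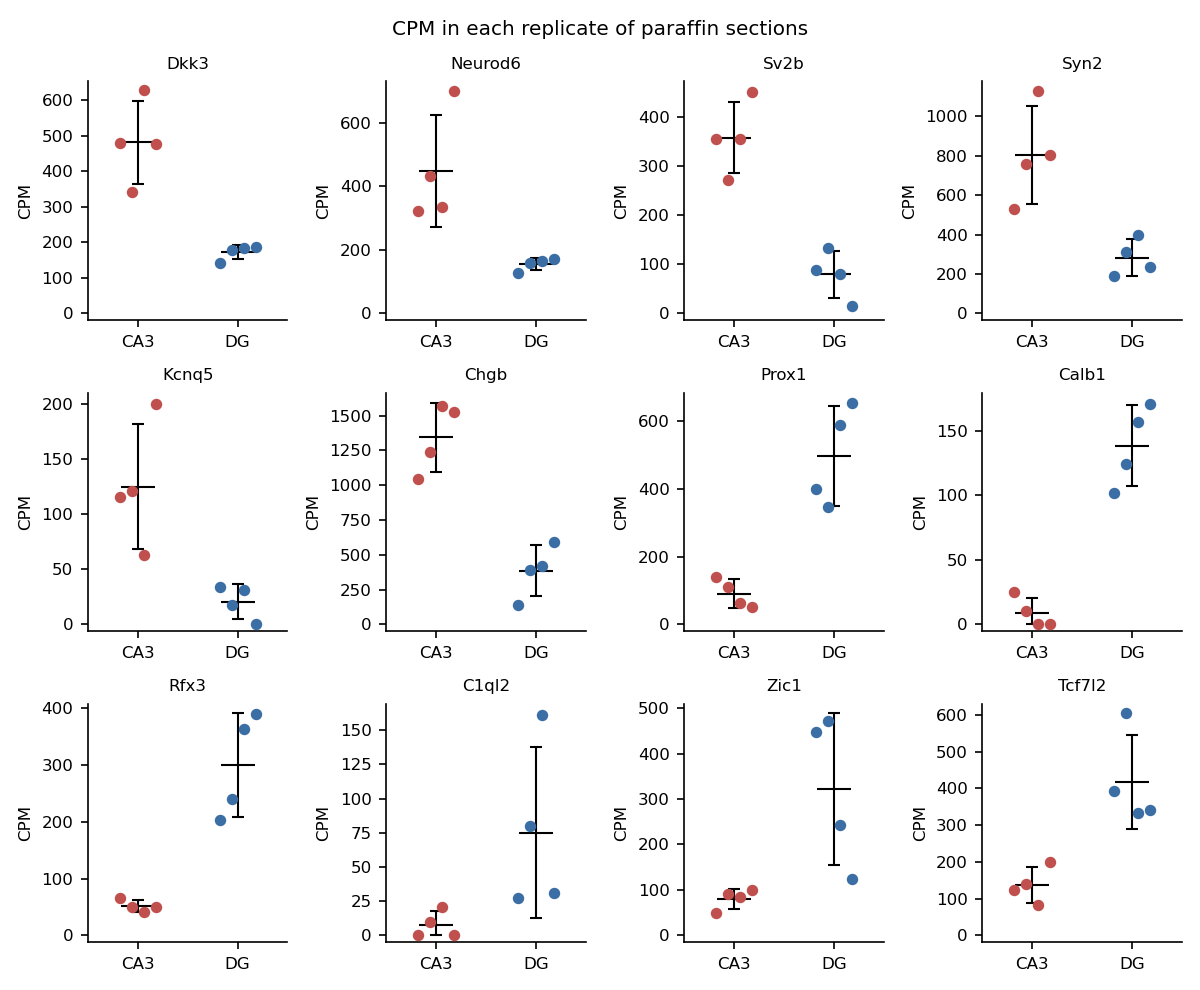
CPM of 12 genes in each of the 4 CA3 (red) and 4 DG (blue) replicates of paraffin sections, with the mean (bar) and SD (whiskers). In each panel no replicate of one region reaches the values of the other region.

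Granule cell genes that passed the test were higher in DG. Of 16 chosen as DG markers, 15 were tested, all 15 had negative log2 fold changes, 7 were called (beside 1.28% of all genes tested) and the median was -2.16. The list's sums were 637, 685, 607 and 476 CPM in CA3 and 1505, 1743, 2466 and 2583 CPM in DG. These do not overlap, and Sema5a, which itself did not pass the test (log2 fold change -0.44, adjusted p = 0.503), was the most abundant. The number called was 3 without DG replicate 3, and 3 with DESeq2. Calb1, the calcium buffer calbindin (ENSMUSG00000028222, chromosome 4, 15881264 to 15908064), was at 24.8, 10.1, 0 and 0 CPM in CA3 and 102, 124, 157 and 171 CPM in DG. CA3 held 4 UMIs of it in all, and the log2 fold change was -3.23 (adjusted p = 7.46e-05, SE 0.59). Rfx3, a transcription factor of cilium genes (ENSMUSG00000040929, chromosome 19, 27761721 to 28011166), was at 66.2, 50.4, 41.8 and 50.1 CPM in CA3 and 203, 240.1, 363 and 389 CPM in DG. Its DG values were all above its CA3 values, with -2.34 (adjusted p = 7.67e-06, SE 0.38). Prox1, Calb1 and Rfx3 were called in each fit without 1 replicate.

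C1ql2, a secreted organizer of mossy fibre synapses and 1 of the 10 largest changes towards DG, had 0, 1, 1 and 0 UMIs in CA3 and 4, 9, 36 and 2 in DG. DG replicate 3 held most of them, and the log2 fold change of -3.42 (adjusted p = 0.00345, SE 0.79) was not called without it (an adjusted p of 0.155 without DG replicate 3). Stxbp6, a SNARE-binding protein, had -1.98 (adjusted p = 0.0188, SE 0.53), with an adjusted p of 0.0504 to 0.0708 without CA3 replicate 4 or DG replicate 3 or 4. Ahcyl2, related to S-adenosylhomocysteine hydrolase, had -1.84 (adjusted p = 0.022, SE 0.51), with an adjusted p of 0.06 without CA3 replicate 2 and 0.149 without DG replicate 3. Dsp, the junction protein desmoplakin, had 1, 0, 0 and 0 UMIs in CA3 and 4, 6, 12 and 3 in DG, an adjusted p of 0.0387, and an adjusted p of 0.0587 to 0.156 without CA3 replicate 2, 3 or 4 or DG replicate 2, 3 or 4. Pdzd2, a PDZ protein that the study names for DG, was at 74.5, 40.3, 41.8 and 50.1 CPM in CA3 and 129, 88.9, 148 and 171 CPM in DG. No replicate overlapped, but the test was not passed (log2 fold change -1.20, adjusted p = 0.111) except without CA3 replicate 1 (-1.63, adjusted p = 0.046). Lct was called without CA3 replicate 2 (adjusted p = 0.0233) and without DG replicate 1 (0.0429), beside 0.0586 with all replicates. Trpc6 held 5 UMIs over the 8 replicates and was not tested.

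Genes of adult neurogenesis did not pass the test in the main fit, and 2 passed, higher in DG, with the replicate number added as a block. Of 10 listed, 6 were tested and none was called by edgeR or DESeq2 (beside 3.21% of all genes tested), with a median of -1.05. At an unadjusted p under 0.05, 2 passed, both higher in DG, beside 586 of the 8718 protein-coding genes higher in DG. The sums were 182, 222, 167 and 326 CPM in CA3 and 515, 542, 417 and 436 CPM in DG. They did not overlap, and Neurod1, a factor of immature granule cells, was the most abundant. Sox11 came nearest (log2 fold change -1.44, adjusted p = 0.0503) and was called without CA3 replicate 4 (-1.57, adjusted p = 0.0479). Dcx, the marker of young neurons, was at 49.6, 30.2, 83.7 and 50.1 CPM in CA3 and 94.9, 62.2, 71.7 and 124 CPM in DG (log2 fold change -0.69, adjusted p = 0.56). Nes and Draxin had 0 UMIs in all 8 replicates, which allows up to 3 UMIs of each over the 8. Mossy cells of the hilus are marked by 4 genes here, of which 2 were tested and 1 was called (1.28% higher in DG over all genes tested). Calb2, calretinin, was higher in DG by a narrow margin, with -1.87 (adjusted p = 0.0499, SE 0.57), and an adjusted p of 0.0553 to 0.158 without CA3 replicate 1, 2, 3 or 4 or DG replicate 2 or 3. The mossy cell list had a median of -0.61 and sums that overlapped, at 116, 101, 62.8 and 150.4 CPM in CA3 and 115, 160.0, 175 and 93.4 CPM in DG. Drd2 held 2 UMIs in all.

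Of the mossy fibre genes Pdyn, Penk, Bdnf and the vesicular zinc transporter Slc30a3, 3 were tested and none was called by edgeR or DESeq2. With 3.21% of all genes tested called, a count of 0 among 3 is no result about these genes. Their median was 0.08, and 1 had an unadjusted p under 0.05. That gene was Penk, an enkephalin precursor, with 1, 0, 0 and 0 UMIs in CA3 and 1, 6, 8 and 4 in DG (log2 fold change -3.02, adjusted p = 0.114). Bdnf, the neurotrophin, was at 199, 181, 83.7 and 376 CPM in CA3 and 81.3, 151, 175 and 249 CPM in DG (log2 fold change 0.42, adjusted p = 0.645). The sums were 232, 222, 188 and 401 CPM in CA3 and 115, 240.1, 282 and 389 CPM in DG, which overlap.

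Several genes higher in DG belong to neither hippocampal list. Zic4, a zinc finger factor (ENSMUSG00000036972, chromosome 9, 91362413 to 91389348), had 3, 0, 0 and 0 UMIs in CA3 and 27, 18, 15 and 4 in DG. Its 3 UMIs in CA3 all came from replicate 1, and the log2 fold change was -3.43 (adjusted p = 2.97e-04, SE 0.67). The gene overlaps Zic1 on the opposite strand, so counts of the pair cannot be told apart by strand. Zic1 itself, named after its values were seen like Lhx9, was at 49.6, 90.7, 83.7 and 100.2 CPM in CA3 and 447, 471, 242 and 124 CPM in DG. CA3 lay below DG throughout, with -2.06 (adjusted p = 6.08e-05, SE 0.37). Tcf7l2, a Wnt pathway factor used as a thalamus marker (ENSMUSG00000024985, chromosome 19, 55741820 to 55933654), was at 124, 141, 83.7 and 200.5 CPM in CA3 and 393, 605, 332 and 342 CPM in DG. Those groups were apart as well, with -1.58 (adjusted p = 2.91e-04, SE 0.31). Slc17a6, VGLUT2, was at 33.1, 40.3, 105 and 150.4 CPM in CA3 and 210.2, 240.1, 211 and 249 CPM in DG. CA3 replicate 4 was its highest CA3 value and was below the DG values, with -1.72 (adjusted p = 0.00253, SE 0.39). Lhx9, a LIM homeobox factor, had -2.21 (adjusted p = 0.0188, SE 0.60), with an adjusted p of 0.0617 to 0.201 without CA3 replicate 2 or 3 or DG replicate 1.

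Thalamus markers as a list showed 1 call, where 1.28% of all genes tested were higher in DG. All 4 were tested, Tcf7l2 was higher in DG and was the most abundant, and the median was -0.43. The sums were 521, 474, 314 and 602 CPM in CA3 and 705, 934, 708 and 591 CPM in DG, which overlap, and CA1 had 162 CPM (mean, n = 4). None of the 4 was at 0 in all replicates. Prkcd, a protein kinase C of thalamic relay neurons, was at 174, 161, 188 and 251 CPM in CA3 and 88.1, 53.4, 139 and 31.1 CPM in DG (log2 fold change 1.10, adjusted p = 0.0708) and was called higher in CA3 without DG replicate 3 (1.54, adjusted p = 0.0318). How much RNA from the thalamus or other tissue outside the DG is in the levels of Zic1, Zic4, Tcf7l2, Slc17a6, Lhx9, Cbln1 and Chrna3 was not tested.

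The other genes with the largest changes towards DG had few or no UMIs in CA3. Cbln1, a secreted synapse organizer, had 0, 0, 0 and 0 UMIs in CA3 and 7, 10, 5 and 2 in DG. With 3 UMIs over the CA3 group as the most that 0 allows, it was at least 4.50-fold higher in DG (adjusted p = 0.0093), with an adjusted p of 0.0627 without DG replicate 2. Snx29, a sorting nexin, had 0, 0, 0 and 0 and 8, 5, 12 and 1 UMIs and on the same floor was at least 4.88-fold higher in DG (adjusted p = 0.00729). Chrna3, a nicotinic receptor subunit, had 0, 1, 0 and 0 and 11, 7, 7 and 3 UMIs. Its adjusted p was 0.0203, with an adjusted p of 0.0514 to 0.0777 without CA3 replicate 1 or DG replicate 1 or 2. Vat1l had 1, 0, 0 and 0 and 14, 14, 7 and 4 UMIs and a log2 fold change of -4.07 (adjusted p = 0.00222, SE 0.91). Cadps2, which primes dense-core vesicles for release, had 2, 0, 1 and 0 and 20, 21, 16 and 8 UMIs, with -3.47 (adjusted p = 1.33e-04, SE 0.65). Snx29, Vat1l and Cadps2 were called in all 8 fits without 1 replicate. DESeq2 called Vat1l and Cadps2 but not Snx29. The TEC gene 4921527H02Rik, annotated as awaiting experimental support, had 0, 1, 1 and 0 and 20, 18, 46 and 4 UMIs, with -4.25 (adjusted p = 3.01e-06, SE 0.66). Wdcp (adjusted p = 0.0244), also of the 10, had an adjusted p of 0.0541 to 0.0817 without CA3 replicate 1 or 3 or DG replicate 1. 2410004B18Rik (adjusted p = 0.0352) had an adjusted p of 0.0664 to 0.147 without CA3 replicate 1, 2 or 3 or DG replicate 1, 3 or 4.

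The largest change among genes that met the rule belonged to a pseudogene. Gm14336 (ENSMUSG00000082543, chromosome 2, 173920352 to 173920826) had 86, 63, 37 and 28 UMIs in CA3 and 1, 0, 1 and 0 in DG. Its CA3 level of 705 ± 57.0 CPM (mean ± SD, n = 4) stood beside at most 6.96 CPM (mean) in any of the other 11 libraries of the series, and the log2 fold change was 7.23 (adjusted p = 1.64e-23, SE 0.47). Transcripts of 18 other genes are near-identical to it, among them BC004004 (95.9% identity), which was not called (log2 fold change 0.53, adjusted p = 0.709). Next came 4930430E12Rik, a long noncoding RNA gene (ENSMUSG00000085295, chromosome 4, 6352105 to 6357530), with 27, 39, 17 and 19 UMIs in CA3 and 0, 0, 1 and 0 in DG. Its level was also highest in this CA3 library, at 362 ± 105 CPM beside at most 14.0 CPM (mean) in the other 11, with 6.90 (adjusted p = 1.02e-16, SE 0.58). The other 3 CA3 libraries, of fixed frozen, fresh-frozen TE and fresh-frozen HCl sections, held means of 3.91, 0 and 0 CPM of Gm14336 and of 14.0, 0 and 0.845 CPM of 4930430E12Rik, so the high levels were not common to CA3 libraries. Within paraffin sections region and library cannot be told apart.

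Pseudogenes made up 35 of the 301 calls. Of 195 tested, 34 were called higher in CA3 and 1 higher in DG (17.9%), with a median log2 fold change of 0.70, beside 143 and 107 of 8718 protein-coding genes (2.87%), with a median of -0.06. Pseudogenes made up 4.2, 4.05, 4.89 and 3.62% of UMIs in CA3 and 2.82, 2.52, 2.57 and 2.60% in DG. The shares do not overlap (exact permutation test, p = 0.0286, below which 4 against 4 cannot go). The number higher in CA3 was 23 to 32 in the fits without 1 replicate, 21 with DESeq2 and 19 after thinning, the 23 without DG replicate 2. Protein-coding genes higher in CA3 numbered 73 without CA3 replicate 2 and 95, 72 and 89 without DG replicates 1, 2 and 3, and those higher in DG 168 and 62 without CA3 replicates 1 and 2 and 67 without DG replicate 2. A near-identical transcript elsewhere in the genome, with at least 95% identity over at least 50% of its length, was found for 33 of the 34 pseudogenes, for 20 of the 143 protein-coding genes higher in CA3 and for 6 of the 107 higher in DG. Short reads of such copies cannot always be assigned to 1 of them, so the calls of these genes are uncertain as to the gene.

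Sums of near-identical genes were compared as well, each over the copies named. Further near-identical copies, 12 in all for Hmgn2, 7 for Gm9320, 6 for Rpl36-ps3 and 3 each for Rpl37rt and Cox7c-ps1, were not all in the sums, so a ratio that remains does not separate the copies. Rpl37, a ribosomal protein gene, was at 381, 393, 544 and 576 CPM in CA3 and 1112, 898, 1237 and 1743 CPM in DG, with -1.39 (adjusted p = 1.16e-04, SE 0.26). Rpl37rt, its transcribed copy, was at 1382, 1038, 1255 and 1754 CPM in CA3 and 454, 542, 323 and 358 CPM in DG, with 1.70 (adjusted p = 1.35e-06, SE 0.26). The copies match at 99.7% over 344 bases and went in opposite directions, and their sum was 1831 ± 372 CPM in CA3 and 1667 ± 295 in DG (mean ± SD, n = 4 each), a ratio of 1.10 with overlap. Hmgn2, a nucleosome-binding protein gene, and Gm10282 form another such pair (99.3% identity), with log2 fold changes of 3.46 and -1.43 and overlapping sums with a ratio of 0.64. Of the 8 fits without 1 replicate Hmgn2 was called in 6, with an adjusted p of 0.117 without CA3 replicate 4 and 0.11 without DG replicate 3. Gm10282 was called in 3, with an adjusted p of 0.0608 or more without CA3 replicate 2, 3 or 4 or DG replicate 2 or 4. For Gm9320 the sum with Rps24 overlapped between the regions as well, with a ratio of 1.10, beside 4.34 (adjusted p = 3.73e-08, SE 0.57) for Gm9320 alone. The sum of Rpl36 and Rpl36-ps3 kept a ratio of 11.5 without overlap, at 136 ± 32.5 CPM in CA3 and 11.8 ± 9.24 in DG. Cox7c and Cox7c-ps1 together had a ratio of 1.90, again without overlap. Gm12778, Gm12034 and Rps10-ps1, the remaining pseudogenes of the 10, had log2 fold changes of 4.83, 3.00 and 2.84, with near-identical copies in 11, 4 and 3 other genes.

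Nuclear copies of mitochondrial genes were among the abundant ones. Gm28437 (ENSMUSG00000101111, chromosome 1, 24613189 to 24613971), identical to the cytochrome oxidase gene mt-Co3 over 783 bases, was at 4228, 3133, 4497 and 2857 CPM in CA3 and 583, 338, 336 and 560.2 CPM in DG. CA3 was above DG in every replicate, with 3.07 (adjusted p = 1.19e-15, SE 0.27), and CA1 had 5319.9 ± 751 CPM (mean ± SD, n = 4). Together with mt-Co3 the ratio was 7.29 without overlap. Gm28438 and mt-Nd3 summed to a ratio of 4.30, and Gm13341, Gm28661 and mt-Co2 to 2.16, both without overlap. Gm10925 and mt-Atp6 had a ratio of 1.98 with overlap. The opposite direction was seen for Gm29216, a copy of mt-Co1, at 331, 403, 439 and 326 CPM in CA3 and 1668, 1049, 1327 and 1074 CPM in DG. Its groups were apart, with -1.74 (adjusted p = 1.48e-06, SE 0.26), and its sum with mt-Co1 had a ratio of 0.48 without overlap. Of 24 mitochondrially encoded genes, 16 were tested, mt-Co2 was called higher in CA3 (1.93% over all genes tested), with 1.42 (adjusted p = 1.07e-04, SE 0.26), and none higher in DG, with a median of 0.29. Their sums overlapped, at 81864, 66007, 95041 and 70347 CPM in CA3 and 90062, 75645, 58882 and 88789 CPM in DG, and mt-Nd4 was the most abundant.

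**Figure D3:**
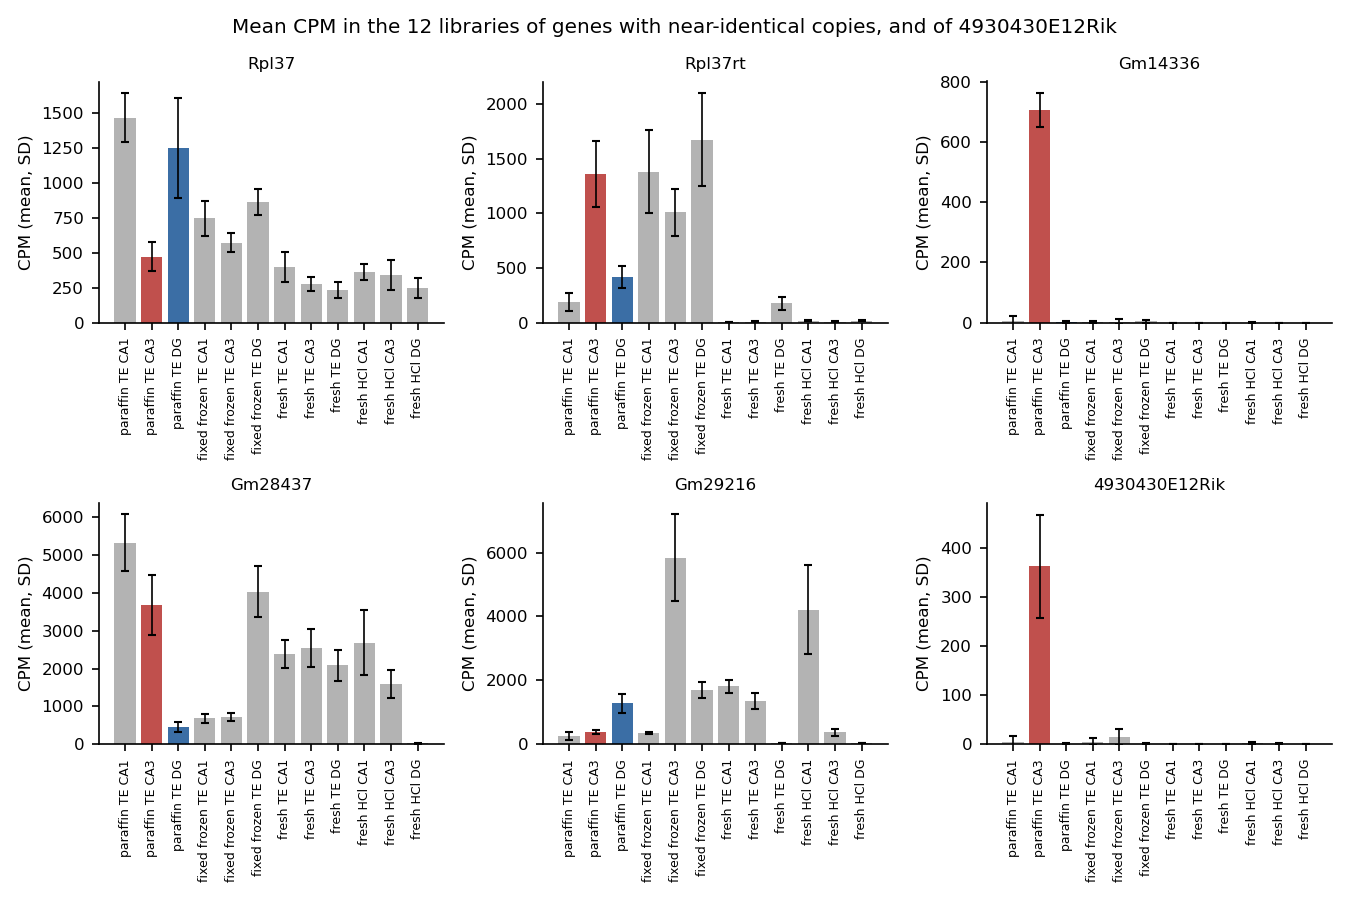
Mean CPM with SD of Rpl37, Rpl37rt, Gm14336, Gm28437, Gm29216 and 4930430E12Rik in the 12 libraries (4 replicates each), with paraffin CA3 in red and paraffin DG in blue. Gm14336 and 4930430E12Rik reach 705 and 362 CPM in paraffin CA3 and stay near 0 in the other 11 libraries.

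Genes whose symbols begin with Rpl or Rps and a number, a pattern that also takes in the Rps6ka kinases, numbered 313, of which 125 were tested, 7 called higher in CA3 and 2 higher in DG (1.93% and 1.28% over all genes tested), with a median of 0.14. The calls higher in CA3 were 5 without DG replicate 1. Of the 75 protein-coding members tested, Rpl18 was higher in CA3 and Rps21 and Rpl37 higher in DG, while 6 of 50 pseudogenes were higher in CA3. Rps21 had -0.95 (adjusted p = 0.0158, SE 0.25), with an adjusted p of 0.0526 without CA3 replicate 2 and 0.0523 without DG replicate 2. Sums over all members overlapped, at 21626, 25881, 24952 and 22104 CPM in CA3 and 23138, 24797, 24214 and 25488 CPM in DG, with Rpl4 the most abundant. Over the pseudogene members they were 10109.9, 10356, 10144 and 10902 CPM in CA3 and 8366, 8979.9, 8213 and 9849.8 CPM in DG, without overlap. Transcripts annotated as awaiting experimental support (TEC), another gene type, had 8 of 216 called, all higher in DG (3.70%, beside 1.28% higher in DG over all genes), with a median of -0.64, beside 14 and 5 such calls without CA3 replicates 1 and 2. Of 212 long noncoding RNA genes, 2 were called higher in CA3 and 4 higher in DG (2.83%, beside 3.21% over all genes in either direction), and those higher in DG were 7, 0 and 2 without CA3 replicates 1, 2 and 3 and 1 without DG replicate 2, 3 or 4.

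Markers of the fields CA1 and CA2 were compared as well, and where the irradiated areas ended was not tested. Of 8 CA1 markers, 5 were tested and none was called by edgeR or DESeq2 (beside 3.21% of all genes tested). The median was -1.03. At an unadjusted p under 0.05, 2 passed, both higher in DG, beside 586 of the 8718 protein-coding genes. Their sums were 124, 151, 62.8 and 75.2 CPM in CA3 and 210.2, 249, 305 and 249 CPM in DG, without overlap, beside 490.5 CPM (mean, n = 4) in CA1. The most abundant was Pou3f1, and Gpr161 was at 0 in all 8 replicates. Wfs1, the CA1 marker of the study, had 1, 3, 0 and 0 UMIs in CA3 and 4, 5, 7 and 0 in DG (log2 fold change -1.03, adjusted p = 0.66). Of 8 CA2 markers, 4 were tested and 1, Pcp4, was called, higher in DG (1.28% over all genes tested), with a median of -0.88. Pcp4, a calmodulin-binding peptide, was at 182, 363, 356 and 602 CPM in CA3 and 929, 1120.3, 919 and 545 CPM in DG, where CA3 replicate 4 was above DG replicate 4, with -1.32 (adjusted p = 7.48e-04, SE 0.28). Map3k15 and Avpr1b, both in use as CA2 markers, had 0 UMIs. The CA2 sums were 281, 453, 397 and 652 CPM in CA3 and 1098, 1262, 973 and 576 CPM in DG and overlapped. Of Gapdh and the 5 genes the study names for the regions, 5 were tested, Dkk3 and Prox1 were called (3.21% over all genes tested in either direction), the median was -1.03, and the sums, 910.1, 796, 858 and 827 CPM in CA3 and 834, 791, 1166 and 1120.4 CPM in DG, overlapped. Gapdh had 0, 3, 0 and 0 UMIs in CA3 and 0, 0, 2 and 0 in DG and was not tested.

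Transcription factors of excitatory neurons gave calls in both directions (1.93% higher in CA3 and 1.28% higher in DG over all genes tested). All 16 were tested, Neurod6 was higher in CA3, Prox1, Bcl11b and Mef2c were higher in DG, and the median was 0.13. Bcl11b, also known as Ctip2, had -1.30 (adjusted p = 0.0224, SE 0.36), with an adjusted p of 0.0526 to 0.196 without CA3 replicate 2 or 3 or DG replicate 2 or 3. Mef2c, an activity-dependent factor, had -1.01 (adjusted p = 0.0427, SE 0.30), with an adjusted p of 0.0529 to 0.152 without CA3 replicate 1, 2 or 3 or DG replicate 1, 2, 3 or 4. Lmo4 was called higher in CA3 without CA3 replicate 2 (0.98, adjusted p = 0.0419). Summed levels overlapped, at 4683, 4251, 4580.5 and 5138 CPM in CA3 and 4535, 5281, 5734 and 5679.6 CPM in DG, with Zbtb20 the most abundant.

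The 4 transmitter receptor lists gave 1 call in all, where 3.21% of all genes tested were called. Of 5 kainate receptor subunits, 4 were tested and Grik5 was called, higher in CA3, with 1.02 (adjusted p = 0.0413, SE 0.31), and an adjusted p of 0.0508 to 0.231 without CA3 replicate 1, 2 or 3 or DG replicate 1, 2, 3 or 4. The list's median was 0.40 and its sums, 438, 484, 481 and 351 CPM in CA3 and 292, 293, 408 and 451 CPM in DG, overlapped. Of 8 AMPA and NMDA receptor subunits, 7 were tested and none was called by edgeR or DESeq2 or had an unadjusted p under 0.05, with a median of -0.25. Gria2, the most abundant, was at 2118, 1038, 1610.5 and 2331 CPM in CA3 and 1647, 1636, 1995 and 2209.6 CPM in DG, and the list's sums of 4666, 3032, 3848 and 4837 CPM and 4061, 4179, 4784 and 4793 CPM overlapped. Of 7 metabotropic glutamate receptors 6 were tested, with 0 calls by edgeR or DESeq2, 0 at an unadjusted p under 0.05, and a median of -0.20. Their sums overlapped, at 745, 514, 607 and 1002 CPM in CA3 and 725, 871, 888 and 622 CPM in DG, with Grm5 the most abundant. GABA-A receptor subunits (12, of which 11 were tested) had 0 calls by either tool, 2 at an unadjusted p under 0.05, both higher in DG, and a median of -0.38. Gabra3 was called higher in DG without CA3 replicate 1 (adjusted p = 0.0465). The sums of 2358, 2126, 2614 and 3859.5 CPM and 1763, 2587, 3250.3 and 3299 CPM overlapped, with Gabra2 the most abundant.

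Calcium, calmodulin and potassium channel lists gave calls in both directions, where 1.93% of all genes tested were called higher in CA3 and 1.28% higher in DG. Of 12 calcium buffers and sensors, Vsnl1 was called higher in CA3 and Calb1 and Calb2 higher in DG, with a median of -0.04. Vsnl1, a visinin-like calcium sensor and the most abundant member, was at 1018, 967, 1067 and 1328 CPM in CA3 and 393, 578, 605 and 762 CPM in DG, without overlap. Its log2 fold change was 0.94 (adjusted p = 0.0152, SE 0.25), with an adjusted p of 0.0556 to 0.101 without DG replicate 1, 2 or 3. Hpca was called higher in CA3 without CA3 replicate 1 (adjusted p = 0.0164), and Necab1 higher in DG without DG replicate 1 (0.0341) or 3 (0.0286). The list's sums overlapped, at 2077, 2277, 2552 and 2481 CPM in CA3 and 1376, 1867, 1847 and 2101 CPM in DG. Of 14 CaMKII and calmodulin pathway genes, Nrgn was higher in CA3 and Pcp4 higher in DG, with a median of 0.13. Nrgn, the calmodulin-binding neurogranin, had 1.11 (adjusted p = 0.00591, SE 0.27) and overlapping groups, with an adjusted p of 0.0842 to 0.13 without CA3 replicate 2 or 3 or DG replicate 2. Their sums of 19748, 22828, 21752 and 29322 CPM and 17328, 22939, 21120.4 and 26095 CPM overlapped. Of 19 potassium channel genes, 17 were tested, Kcnq5 was higher in CA3 and Kcnma1 higher in DG, and the median was -0.11. Kcnma1, the large-conductance channel and the most abundant, had -0.91 (adjusted p = 0.0494, SE 0.28), with an adjusted p of 0.0637 to 0.165 without CA3 replicate 2, 3 or 4 or DG replicate 1, 2 or 4. Without CA3 replicate 1, 2 were called higher in CA3 and 3 higher in DG, Kcnd2 (adjusted p = 0.0225) among the latter. The sums were 2052, 2216, 2092 and 2656 CPM in CA3 and 2407, 2712, 2721 and 2863 CPM in DG and overlapped.

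Corticosteroid receptors and their targets (4, all tested) had 0 calls by edgeR or DESeq2, where 3.21% of all genes tested were called. They had 0 at an unadjusted p under 0.05 and a median of -0.07. Their sums overlapped, at 479.8, 564, 920.3 and 752 CPM in CA3 and 610.1, 498, 861 and 809 CPM in DG, with Sgk1 the most abundant. Of 13 immediate early genes, which neurons induce on activity, 7 were tested, with 0 calls by edgeR or DESeq2, 1 at an unadjusted p under 0.05 in each direction, and a median of -0.31. The sums overlapped, at 836, 1068, 941 and 827 CPM in CA3 and 841, 978, 1129.8 and 1058 CPM in DG, with Jund the most abundant. The nuclear-retained transcripts (6, all tested) had 0 calls by either tool, 1 at an unadjusted p under 0.05 in each direction, a median of 0.22 and overlapping sums of 10035, 7616, 7676 and 6190.2 CPM and 10121, 7326, 8285 and 5819.7 CPM, with Meg3 the most abundant. Malat1, a nuclear noncoding RNA, was at 3541, 685, 167 and 1078 CPM in CA3 and 3647, 2054, 1995 and 1665 CPM in DG. CA3 replicate 1 held most of its CA3 UMIs, and without that replicate Malat1 was called higher in DG (-1.94, adjusted p = 6.3e-07).

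Oligodendrocyte and astrocyte markers gave 1 call each, in opposite directions, where 1.93% of all genes tested were higher in CA3 and 1.28% higher in DG. Of 10 oligodendrocyte markers, all tested, Mag was called higher in CA3 and none higher in DG, with a median of 0.51. The sums were 21792, 17852, 12278 and 9849 CPM in CA3 and 19795, 13994, 10128 and 6659.9 CPM in DG. They overlap between the regions, fall from replicate 1 to replicate 4 in both, and were higher in CA3 at each replicate number. Mag, the myelin-associated glycoprotein, had 1.22 (adjusted p = 0.02, SE 0.33), with an adjusted p of 0.0503 to 0.25 without CA3 replicate 2 or 3 or DG replicate 2, 3 or 4. Mbp was called higher in CA3 without CA3 replicate 4 (1.01, adjusted p = 0.0355) and without DG replicate 1 (1.11, 0.012), and Cnp without CA3 replicate 4 (0.93, 0.0424). No oligodendrocyte marker was at 0, and the part of these cells in the genes called higher in CA3 was not tested. Of 10 astrocyte markers, 9 were tested and Aqp4 was called, higher in DG, with a median of -0.33 and sums of 3177, 2871, 3472 and 4686 CPM in CA3 and 3809.9, 4054, 4483 and 5057 CPM in DG, which overlap, with Slc1a2 the most abundant. Aqp4, the water channel of astrocyte endfeet, was at 124, 10.1, 62.8 and 75.2 CPM in CA3 and 210.2, 240.1, 193 and 233 CPM in DG. Its groups were apart, with -1.54 (adjusted p = 0.00996, SE 0.39), and an adjusted p of 0.137 without CA3 replicate 2.

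Slc4a4, Sparc and Mlc1 were picked after their values were seen and are in none of the lists. Slc4a4, a sodium bicarbonate cotransporter, was at 57.9, 20.1, 105 and 50.1 CPM in CA3 and 176, 231, 264 and 233 CPM in DG, without overlap and with -2.02 (adjusted p = 3.53e-04, SE 0.40). Sparc, a matrix glycoprotein, was at 356, 282, 376 and 276 CPM in CA3 and 678, 729, 641 and 809 CPM in DG, also without overlap, with -1.08 (adjusted p = 0.00675, SE 0.26). Both were called in all 8 fits without 1 replicate. Mlc1, a membrane protein of endfeet, had -1.38 (adjusted p = 0.0381, SE 0.41), with an adjusted p of 0.0535 to 0.192 without CA3 replicate 2 or 4 or DG replicate 1 or 3.

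Markers of other cell types were low or uneven, where 3.21% of all genes tested were called. Of 9 interneuron markers, all tested, 0 were called by edgeR or DESeq2, 2 had an unadjusted p under 0.05, both higher in DG, and the median was -0.30. The sums overlapped, at 794, 1753, 1359.5 and 1328 CPM in CA3 and 1152, 1725, 1704 and 1774 CPM in DG, with Cck the most abundant, and Gad2, a GABA-synthesizing enzyme, was called higher in DG without CA3 replicate 4 (adjusted p = 0.0479). Of 9 microglia markers 3 were tested, with 0 calls by either tool, 0 at an unadjusted p under 0.05, and a median of -0.18. Their sums were 82.7, 131, 83.7 and 125 CPM in CA3 and 129, 80.0, 130.0 and 264 CPM in DG and overlapped, with Ctss the most abundant. Of 9 endothelial and mural markers 5 were tested, with 0 calls by either tool and a median of -1.0. At an unadjusted p under 0.05, 3 passed, all higher in DG, beside 586 of the 8718 protein-coding genes higher in DG. Here the sums did not overlap, at 232, 161, 188 and 125 CPM in CA3 and 325, 329, 368 and 233 CPM in DG, with Flt1 the most abundant, and Rgs5 was called higher in DG without CA3 replicate 1 (adjusted p = 0.0352). The part of vessels and astrocytes in the genes called higher in DG was not tested. Erythrocyte markers were 1 UMI in CA3 replicate 3 and 12 UMIs in DG replicate 3 in all, and Hbb-bs, the member tested, was not called by edgeR or DESeq2, with an unadjusted p under 0.05. In CPM the erythrocyte sums were 0, 0, 20.9 and 0 in CA3 and 0, 0, 53.8 and 0 in DG, and Hba-a2 and Alas2 were at 0.

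Choroid plexus RNA was concentrated in 1 replicate. The 4 markers summed to 877, 1159, 272 and 576 CPM in CA3 and 8989, 53.4, 35.9 and 249 CPM in DG, with Ttr, the transthyretin gene, the most abundant and Folr1 at 0. DG replicate 1 was above all CA3 replicates, and the other 3 DG replicates were below all of them. Ttr had 105, 114, 13 and 23 UMIs in CA3 and 1311, 6, 7 and 14 in DG. Of the 2 members tested none was called by edgeR or DESeq2, 1 had an unadjusted p under 0.05, and the median was -1.94. The direction of Ttr turned with that replicate, from -1.63 (adjusted p = 0.0628) to 3.32 (adjusted p = 9.81e-10) without DG replicate 1, and Ttr was called higher in DG without CA3 replicate 1 (-1.81) or without DG replicate 2 (-2.09), 3 (-2.08) or 4 (-1.98). The part of choroid plexus in other differences was not tested.

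**Figure D4:**
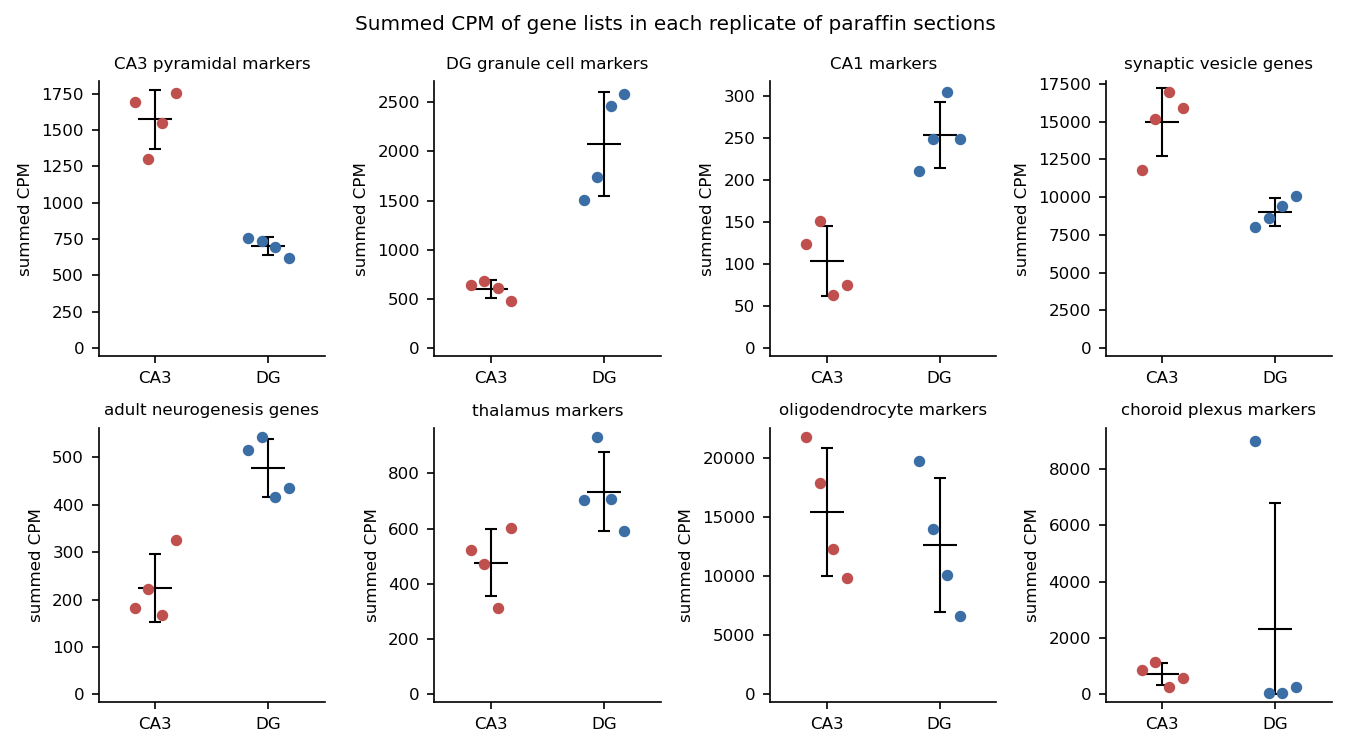
Summed CPM of 8 gene lists in each of the 4 CA3 (red) and 4 DG (blue) replicates, with the mean (bar) and SD (whiskers, stopped at 0). Sums of CA3 and synaptic vesicle genes lie higher in CA3, those of granule cell, CA1 and neurogenesis genes lie higher in DG, and DG replicate 1 stands apart for choroid plexus markers at 8989 CPM.

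The same regions were compared in other section types with the same fit, and these use other libraries. In formalin-fixed frozen sections 867 of 9353 genes were called (9.27%), and in fresh-frozen sections permeabilized with TE 1138 of 14386 (7.91%), with higher mean UMI totals per replicate in both. Of the 301 genes called in paraffin, 280 were tested in fixed frozen sections and 234 had the same sign there (83.6%), beside 61.9% of all 8465 genes tested in both. Of 285 tested in fresh-frozen sections 245 had the same sign (86.0%), beside 61.1% of 9274. Of the pseudogenes called higher in CA3 the same sign was found for 15 of 28 (53.6%) in fixed frozen and 15 of 22 (68.2%) in fresh-frozen sections. Among the protein-coding genes called higher in CA3 it was found for 113 of 134 (84.3%) and 123 of 141 (87.2%). Over all genes tested in both, the shares were 56.2% and 47.4% for pseudogenes and 61.9% and 61.3% for protein-coding genes. In fixed frozen sections 4 of the 28 pseudogenes were called with the same sign and 7 with the opposite sign. In fresh-frozen sections these were 4 and 2 of 22. For the protein-coding genes they were 61 and 5 of 134, and 66 and 1 of 141. Over all pseudogenes tested in both they were 11 and 9 of 162, and 9 and 11 of 133. These shares and counts were not compared by a test. Of the 280 paraffin calls tested in fixed frozen sections, 131 were called there with the same sign (46.8%) and 14 with the opposite sign. For the 285 tested in fresh-frozen sections these numbers were 147 (51.6%) and 5. Over all genes tested in both, 8.56% and 8.99% were called there with the sign seen in paraffin. Of the 181 and 120 paraffin calls, 49 higher in CA3 and 53 higher in DG were called in that direction in all 3 section types. A share over all genes tested in the 3 was not computed.

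Dkk3 had log2 fold changes of 1.89 (adjusted p = 1.03e-15, SE 0.22) in fixed frozen and 1.77 (adjusted p = 1.78e-08, SE 0.17) in fresh-frozen sections, and Prox1 of -3.15 (adjusted p = 1.34e-33, SE 0.25) and -2.38 (adjusted p = 3.74e-12, SE 0.15). Sv2b was at 2.57 (adjusted p = 2.88e-24, SE 0.24) and 1.96 (adjusted p = 1.13e-07, SE 0.21). Chgb was at 1.49 (adjusted p = 4.88e-20, SE 0.15) and 1.51 (adjusted p = 6.04e-06, SE 0.20). For Neurod6 the values were 1.51 (adjusted p = 4.93e-12, SE 0.20) and 1.53 (adjusted p = 3.39e-06, SE 0.20), and for Calb1 -2.58 (adjusted p = 1.61e-20, SE 0.26) and -2.46 (adjusted p = 1.31e-09, SE 0.21). All of these are on the side seen in paraffin. Zic1 was higher in DG in both, with -1.64 (adjusted p = 3.86e-05, SE 0.33) and -1.84 (adjusted p = 1.49e-07, SE 0.20), and so was Tcf7l2, with -1.19 (adjusted p = 1.80e-04, SE 0.26) and -0.77 (adjusted p = 0.00273, SE 0.17). Pdzd2, which missed the threshold in paraffin, was called in both, with -3.17 (adjusted p = 2.87e-09, SE 0.47) and -2.45 (adjusted p = 1.55e-08, SE 0.23). Nr4a2 was not called in either (log2 fold changes 0.25 and 0.17).

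Whether the difference between CA3 and DG itself differed between paraffin and fixed frozen sections was tested with an interaction term. It was called for 55 of 11423 genes (0.481%), 44 with a more positive and 11 with a more negative value in paraffin, and 37 of the 55 were also called between the regions in paraffin. Of 274 pseudogenes tested 18 were more positive and 1 more negative, and of 10398 protein-coding genes 26 and 10. Dkk3 had an interaction of -0.36 (adjusted p = 0.855, SE 0.36) and Prox1 of 1.04 (adjusted p = 0.502, SE 0.45), neither past the threshold. Gm28437 had 5.64 (adjusted p = 9.13e-71, SE 0.31), and in fixed frozen sections it was lower in CA3, with -2.52 (adjusted p = 1.59e-48, SE 0.17). Rpl37rt had 2.49 (adjusted p = 2.73e-13, SE 0.30) and Gm29216 -3.45 (adjusted p = 7.39e-26, SE 0.31). Both were called in the direction opposite to paraffin in the other section types. Rpl37rt stood at -0.74 (adjusted p = 1.22e-04) in fixed frozen and -4.04 (adjusted p = 4.25e-11) in fresh-frozen TE sections. Gm29216 stood at 1.76 (adjusted p = 9.06e-28) and 5.36 (adjusted p = 1.09e-17). Among protein-coding genes the lowest adjusted p was that of Ttr, at 5.23 (adjusted p = 1.55e-69, SE 0.29) in fixed frozen sections and -1.63 in paraffin, where DG replicate 1 held most of its UMIs, an interaction of -6.75 (adjusted p = 3.79e-63, SE 0.39). Enpp2 was also more negative in paraffin, with -2.36 (adjusted p = 2.48e-10, SE 0.32), though DG replicate 1 held most of its DG UMIs too and its paraffin log2 fold change ran from -1.36 to 0.54 in the fits without 1 replicate. Hnrnph1 was more positive, with 5.30 (adjusted p = 3.19e-11, SE 0.69). It was called lower in CA3 in fixed frozen sections (-2.66, adjusted p = 5.37e-08) and not called in fresh-frozen TE sections (0.20, adjusted p = 0.813). Agap2, a GTPase-activating protein of neurons, was at 414, 534, 230.1 and 301 CPM in CA3 and 33.9, 71.1, 67.2 and 124 CPM in DG in paraffin. It was 2.57 (adjusted p = 3.73e-08, SE 0.34) there and -0.34 (adjusted p = 0.524, SE 0.27) in fixed frozen sections, an interaction of 2.98 (adjusted p = 2.36e-09, SE 0.43). Chn1, a Rac regulator of neurons chosen after its values were seen, was at 1.21 (adjusted p = 7.43e-04, SE 0.25) in paraffin and -0.28 (adjusted p = 0.291, SE 0.15) in fixed frozen sections, with 1.55 (adjusted p = 3.46e-05, SE 0.29). Against fresh-frozen TE sections, 61 of 15075 genes were called (0.405%).

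CA1 of the same section type gives a second pyramidal field for comparison, though it shares the CA3 or the DG replicates with the values above. Between CA1 and DG 295 of 8969 genes were called (3.29%), and between CA3 and CA1 177 of 7495 (2.36%). Side by side, Dkk3 was at 1.21 (adjusted p = 0.00151, SE 0.28) for CA1 over DG and 0.18 (adjusted p = 0.906, SE 0.31) for CA3 over CA1. Prox1 was at -1.94 (adjusted p = 1.35e-07, SE 0.31) and -0.35 (adjusted p = 0.858, SE 0.47). Neurod6, though listed for both fields, was at 189 ± 125 CPM in CA1 (mean ± SD, n = 4) and was not called against DG, with 0.16 (adjusted p = 0.901, SE 0.34) and 1.24 (adjusted p = 0.028, SE 0.35). Kcnq5 was higher in CA1 than in DG too, with 2.09 (adjusted p = 0.00633, SE 0.53) and 0.07 (adjusted p = 0.982, SE 0.47). Chgb had -0.27 (adjusted p = 0.725, SE 0.27) for CA1 over DG and 2.06 (adjusted p = 1.85e-08, SE 0.31) for CA3 over CA1, and Syn2 had -0.26 (adjusted p = 0.772, SE 0.28) and 1.61 (adjusted p = 1.07e-04, SE 0.32). Cpne4 was lower in CA1 than in both, with -1.86 (adjusted p = 0.0199, SE 0.53) and 2.90 (adjusted p = 9.04e-06, SE 0.52). Tcf7l2, lower in CA3 than in DG, was lower still in CA1, with -3.83 (adjusted p = 7.73e-16, SE 0.43) and 2.13 (adjusted p = 0.0327, SE 0.62).

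Several limits apply to all of these values. Each region was 1 library, with between 39902 and 223055 UMIs per replicate, so genes of low level have few counts and their calls move with single replicates. Reads were counted without strand, and copies that differ by few bases cannot be separated. Irradiated areas hold more than 1 cell type, and no list of markers measures the share of each. Section types differ in embedding and depth, and the fresh-frozen ones also in fixation, so a difference between them cannot be assigned to 1 of these.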

How the data were processed

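RNA was measured by photo-isolation chemistry in 48 replicate columns of 12 libraries of mouse hippocampus. Of these, 8 columns (4 CA3 and 4 DG replicates of paraffin sections) make the main comparison. The deposited table holds counts of UMIs per gene and replicate for 32546 genes, for which the authors extracted barcodes with UMI-tools 1.0.0, trimmed adapters with Trim Galore, aligned reads to GRCm38 with HISAT2 2.1.0 and assigned them to genes with featureCounts 1.6.4 (annotation release not given). The authors used DESeq2 1.20.0 for their own tests. Replicates were grouped by column labels, and no measured column was left out of the tables used here (0 unused).

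Genes whose counts over the 8 replicates summed to 10 or more were tested with edgeR 4.0.16 in R 4.3.3 (quasi-likelihood F test, TMM factors, library sizes recomputed over the genes kept, Benjamini-Hochberg adjustment, threshold 0.05). SE is the log2 fold change over the square root of F. Totals and shares were tested with exact permutations of 4 against 4. The same fit served the other section types, CA1 and the interaction of region and section type. CPM used all UMIs of a replicate, and totals ran from 39902 to 223055. Tables and figures came from Python 3.11.15, with matplotlib 3.10.9, scipy 1.17.1, pandas 2.3.3 and numpy 2.4.6. Positions are from GENCODE M21, in which 32515 of the 32546 identifiers were found, and 773 genes had no symbol. Near-identical transcripts were found with BLAST 2.17.0 (95% identity or more over 50% or more of a transcript, at another locus, same strand).

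Genes named were the 5 the study names and Gapdh, the 10 largest changes in each direction among called genes averaging 3 UMIs or more whose CPM did not overlap between regions, and members of 32 gene lists. Members and lists were chosen with earlier results of these data known, and lists were described without a set test. Genes outside this rule are said to have been chosen after their values were seen. Alternatives were DESeq2 1.42.0, its size factors, no filter, filterByExpr, CA1 in the fit, a replicate block, thinning to 1 total (1 random draw) and leaving out each replicate. Chosen after seeing the data were the newer quasi-likelihood method of edgeR, library sizes over all genes, no TMM factors and protein-coding genes only.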

Additional observations from a re-analysis of the deposited data

Results flagged for a closer look

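Replicates were compared with the other 3 of their group for 118 groups of values (totals, list sums and named genes), and 1 replicate stood far from the rest in 15 of them. In 12 of the 15, 1 replicate had counts and the other 3 had 0, a pattern that this comparison always flags, so the rate of about 1 in 20 that chance gives for continuous values does not apply to them. They are Gapdh, at 30.22 CPM in CA3 replicate 2 and at 8.966 CPM in DG replicate 3, 4930430E12Rik at 4.483 CPM in DG replicate 3, Rpl36-ps3 at 6.779 CPM in DG replicate 1 and Gm12778 at 8.891 CPM in DG replicate 2. On the CA3 side they are Vat1l at 8.273 CPM in replicate 1, Chrna3 at 10.07 CPM in replicate 2, Wdcp at 10.07 CPM in replicate 2, Zic4 at 24.82 CPM in replicate 1 and 2410004B18Rik at 25.06 CPM in replicate 4. Erythrocyte markers summed to 20.92 CPM in CA3 replicate 3 and to 53.8 CPM in DG replicate 3, with 0 in the others. Wdcp was at 61.01 CPM in DG replicate 1, beside 44.46 to 46.68 CPM in the other 3.

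DG replicate 1 also stood apart in 2 marker sums. Choroid plexus markers summed to 8989.3 CPM there, beside 35.87 to 249.0 CPM in the other 3 DG replicates, and interneuron markers to 1152.5 CPM, beside 1703.6 to 1773.9 CPM.

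The difference between CA3 and DG itself differed between paraffin and fixed frozen sections, by the edgeR interaction test, for 3 of the genes that the study names or that had the 10 largest changes in each direction. The log2 fold change in paraffin minus that in fixed frozen sections was 7.63 for Gm14336 (adjusted p = 3.45e-05), 5.40 for Gm9320 (adjusted p = 1.03e-05) and 5.64 for Gm28437 (adjusted p = 9.13e-71). All 3 are pseudogenes with near-identical copies, and the cause was not tested.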

How the results depend on the processing

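Dkk3 and Prox1 kept their direction and were called under all 38 alternative values tried for the pair, those added after seeing the data included. For 33 other genes (those the study names and the largest changes, protein-coding genes also taken separately), 545 of 581 values kept direction and side of the threshold, 35 kept direction but were no longer called, 1 (Pdzd2 without CA3 replicate 1) was newly called and 0 changed direction. A gene that a setting did not test gave no value there and is not in the 581. Of the 301 calls, 117 were not tested with filterByExpr, 28 after thinning and 51 with protein-coding genes alone. List members outside these 35 genes are not in that count. Among them Ttr turned from -1.63 to 3.32 (adjusted p = 9.81e-10) without DG replicate 1, and others, such as Sox11, Prkcd, Socs2, Lct and Malat1, were newly called without 1 replicate. Counts of calls moved more. DESeq2 called 149 genes (99 higher in CA3 and 50 higher in DG), of which 146 were among the 301, and thinning to 39902 UMIs gave 128 (86 and 42), with fewer UMIs and 5905 genes tested. Leaving out 1 replicate gave 172 to 429 genes, 99 to 238 higher in CA3 and 68 to 191 higher in DG, a UMI ratio of 0.46 to 0.71 and a ratio of genes detected of 0.75 to 0.89. The ratio of genes detected was 0.63 at 5 UMIs or more and 0.96 after thinning. Without a filter 227 genes were called, with filterByExpr 245, with DESeq2 size factors 329 and with CA1 in the fit 320. Among settings chosen after seeing the data, the newer quasi-likelihood method gave 262, library sizes over all genes 306, no TMM factors 332 and protein-coding genes alone 253. For the interaction with fixed frozen sections (55 genes), DESeq2 gave 41 and its size factors 63. The causes of these shifts were not tested beyond the fewer UMIs or replicates that some settings have by construction.

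Replicate numbers are not described as pairs. With the number as a replicate block 428 genes were called (254 and 174), 289 of them among the 301. In lists with 0 calls in the main fit, the block fit called 2 adult neurogenesis genes higher in DG, 1 immediate early gene higher in CA3 and 1 nuclear-retained transcript in each direction, and thinning called 1 immediate early gene higher in CA3. Among lists with calls, those higher in CA3 and in DG went in the block fit from 3 and 0 to 5 and 1 for microtubule and axon genes, from 1 and 0 to 3 and 0 for oligodendrocyte markers, from 0 and 1 to 1 and 1 for thalamus markers, from 4 and 0 to 5 and 0 for CA3 markers, from 1 and 3 to 2 and 4 for transcription factors, from 1 and 2 to 1 and 3 for calcium buffers, from 1 and 1 to 1 and 2 for potassium channels and from 7 and 2 to 9 and 3 for ribosomal protein genes. The other lists kept their counts in that fit. Profiles of the same number correlated with r between 0.04 and 0.25 over 3117 genes, and 3 of 4 CA3 and 3 of 4 DG replicates correlated best with their own number, a hint from the data and not from the design.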
